A study of Mus musculus with 38 samples.

Results

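The genes described here are 10 of the 22479 genes with a named probe on the array: Nfe2l2, which encodes Nrf2, its target genes Nqo1, Gclc, Gclm, Srxn1, Txnrd1, Hmox1, Gsr and Abcc4, and Osgin1. The members were picked by symbol, each through its probe of highest mean. Osgin1 joined the list because its refeeding response differed between LIRKO and IR floxed livers in these same arrays, so its values in the fasted and refed mice of those 2 genotypes are given as a description with no test.

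Nrf2 is a transcription factor that the adaptor protein Keap1 holds at a low level by passing it to a ubiquitin ligase built on Cul3. Oxidants and electrophiles disable Keap1, and Nrf2 then builds up, pairs with a small Maf protein and binds antioxidant response elements in the promoters of genes for glutathione synthesis, thiol reduction, quinone reduction and export of conjugates. In the liver these genes are best known for the response to toxic compounds and to excess bile acids. Osgin1, a growth inhibitor induced by oxidative stress, is a Nrf2 target in human cells.

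Liver RNA came from male mice of 11 to 12 weeks on a mixed FVB/N-C57Bl/6 background, measured on Agilent two-colour arrays on which each dye channel is a separate mouse. LIRFKO mice lack the insulin receptor and FoxO1, a transcription factor that insulin restrains, and LIRKO mice lack the insulin receptor alone, both in hepatocytes through Cre driven by albumin; the other liver cells keep both genes. The controls are IR/FoxO1 floxed and IR floxed mice, in which the same alleles are floxed but not deleted. Every mouse was first fasted; some were killed 60 min after glucose and others after 6 h with food. In the order fasted, glucose and refed there were 3, 3 and 4 LIRFKO mice, 3, 3 and 4 LIRKO mice and 4, 3 and 4 IR floxed mice, and the IR/FoxO1 floxed line had 3 fasted and 3 refed mice with no glucose group analysed here. Single libraries carry their titles, in which IRF.KO is LIRFKO, IR.KO is LIRKO, IRF.fl and IR.fl are the floxed groups and GTT is glucose. The labels call the fast both overnight and 24 h. The glucose mice also carry higher mouse numbers than the others, so treatment and cohort cannot be told apart in comparisons of glucose with fasted mice. The numbers also separate refed from fasted mice in the IR/FoxO1 floxed line, where the refed ones are lower, and in LIRKO mice, where they are higher, and the same limit holds there. LIRFKO and LIRKO mice are likewise apart by number when refed, LIRFKO being lower, and with glucose, LIRFKO being higher. The floxed lines are apart when refed. Genotype and cohort cannot be told apart in those comparisons.

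The 37 libraries in a group had column medians of 5.72 to 5.78 log2. Within each feeding state Insr was lower in every knockout than in every floxed liver, and Foxo1 lower in every LIRFKO liver than in the others, with the exception of 1 library. IRF.fl_Fast_523, labelled floxed, had Foxo1 at 6.77 and Insr at 6.90, within the range of LIRFKO livers for Foxo1. Results on that group that passed are given with and without it. The 7 hepatocyte markers had group means of 14.87 to 15.45. In bulk RNA, fewer cells of a type and less RNA per cell cannot be told apart.

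Nrf2 acts through a short element near the start of its targets, so promoters are shown for the 3 genes of widest group means among those in the promoter table. The windows are the 250 bases before an annotated start, from RefSeq on GRCm38.p6, written 5′ to 3′ on the strand of the gene. Capitals mark each match, on either strand, to TGACNNNGC or TGAGNNNGC, the core of the antioxidant response element and a variant of it.
Osgin1, chr8:119436897-119437146, plus strand: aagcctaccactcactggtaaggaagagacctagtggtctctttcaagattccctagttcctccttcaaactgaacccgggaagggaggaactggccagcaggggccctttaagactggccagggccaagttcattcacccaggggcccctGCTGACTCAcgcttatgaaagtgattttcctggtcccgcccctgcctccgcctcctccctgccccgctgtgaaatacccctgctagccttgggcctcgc
Srxn1, chr2:152105274-152105523, plus strand: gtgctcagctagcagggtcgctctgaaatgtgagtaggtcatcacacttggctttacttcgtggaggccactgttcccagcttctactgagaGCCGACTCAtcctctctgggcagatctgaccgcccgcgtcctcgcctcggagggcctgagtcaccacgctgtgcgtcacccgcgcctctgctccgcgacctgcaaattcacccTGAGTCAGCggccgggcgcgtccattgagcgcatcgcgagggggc
Abcc4, chr14:118706220-118706469, minus strand: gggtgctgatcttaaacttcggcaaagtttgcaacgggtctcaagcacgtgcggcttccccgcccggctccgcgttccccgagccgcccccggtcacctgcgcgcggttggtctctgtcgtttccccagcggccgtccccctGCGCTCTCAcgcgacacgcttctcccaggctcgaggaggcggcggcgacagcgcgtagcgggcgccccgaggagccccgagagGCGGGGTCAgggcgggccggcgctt

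The Osgin1 window holds TGAGTCAGC on the strand opposite to the gene from base -99 to -91 before the start, and the Srxn1 window holds the same 9 letters on the strand of the gene from base -45 to -37. Its first 7 letters are also the usual binding sequence of AP-1. TGAGTCAGC, which was looked up after both windows had been read, is in 0.414% of the 32851 promoter windows of 300 bases in the table. Srxn1 has a further match, TGAGTCGGC, from base -158 to -150 on the opposite strand. Another, TGACCTAGC, lies on the opposite strand from base 28 to 36, in the 50 bases after the start that the windows of 300 bases also cover. The Abcc4 window, 1 of 2 in the table and the one with more matches, has TGAGAGCGC from -108 to -100 and TGACCCCGC from -25 to -17, both on the strand opposite to the gene. The other Abcc4 window, not shown, has TGACTCTGC from -23 to -15 on the strand of the gene. The Osgin1 and Abcc4 windows lie inside the annotated spans of these genes, chr8:119425882-119446257 and chr14:118482692-118707856. Such short matches are common: 27.8% of all windows hold at least 1 match to the 2 patterns together, and 12.4% one to TGACNNNGC alone. The table covered 7 of the 10 genes in 10 windows, of which 7 windows of 6 genes had a match to either pattern. TGAGNNNGC was added after these windows had been read, so this count cannot be set against the share of all windows. The only match in the Osgin1 window is of that added form, and none is to TGACNNNGC. Nqo1 had none in its window. A match is a run of letters and was not tested as a site.

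Osgin1 was among the brighter genes, with a mean of 11.91 log2 over all mice, above 94.2% of genes, and its group means spanned 3.07 log2. Fasted LIRKO livers held Osgin1 at the level of refed livers, while fasted LIRFKO livers held it at the level of both fasted floxed groups. In the fasted state Osgin1 was 10.57, 10.16 and 10.84 in the LIRFKO livers. The fasted LIRKO livers read 13.81, 12.62 and 12.38. The fasted IR/FoxO1 floxed livers read 9.26, 10.91 and 10.74, and the fasted IR floxed livers 10.34, 9.89, 10.81 and 9.89. Every fasted LIRKO liver lay above every other fasted liver, and the other groups overlapped one another.

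After refeeding, Osgin1 was 14.14, 13.24, 12.18 and 12.93 in LIRKO livers, against 12.68, 12.93, 14.10 and 13.49 in IR floxed livers. The refed LIRFKO livers had 11.33, 12.85, 12.57 and 12.66, against 12.69, 12.83 and 13.37 in refed IR/FoxO1 floxed livers. All 4 refed groups overlapped, except that 1 refed LIRFKO liver (11.33) lay below every other refed liver. With glucose, Osgin1 was 11.51, 11.54 and 11.24 in LIRFKO livers, 13.26, 12.39 and 12.02 in LIRKO livers and 11.02, 11.12 and 10.42 in IR floxed livers. These 3 glucose groups did not overlap.

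**Figure D1:**
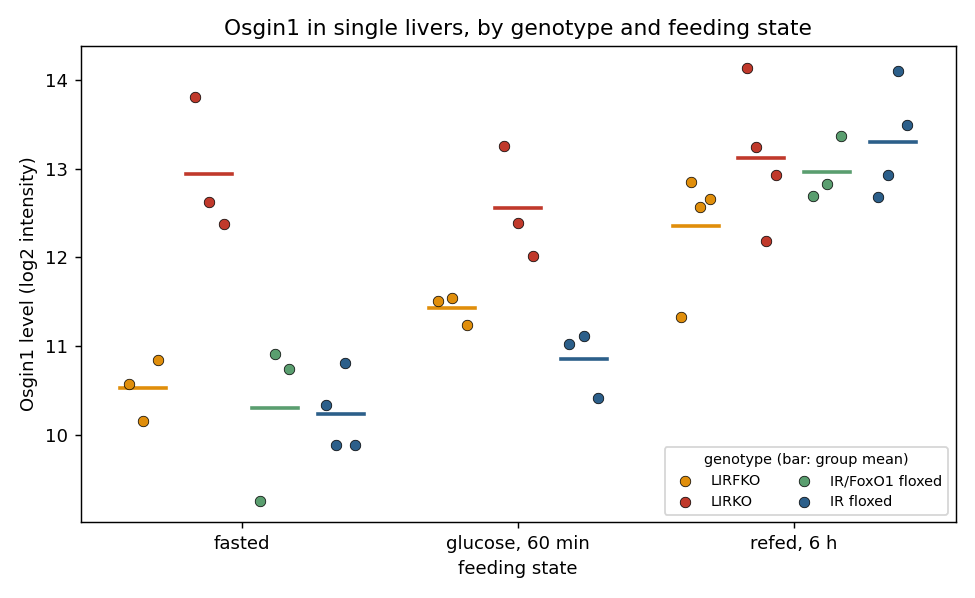
Osgin1 level (log2 intensity, vertical axis) in each of the 37 livers, by feeding state along the horizontal axis and by genotype (colour); points are single mice and bars are group means. Fasted LIRKO livers lie between 12.38 and 13.81, above the other fasted livers, which reach at most 10.91, and the refed groups overlap.

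Ordered by mean, the groups ran from refed IR floxed (13.30 ± 0.63, SD, n = 4) and refed LIRKO (13.12 ± 0.81, n = 4) through refed IR/FoxO1 floxed (12.97 ± 0.36, n = 3), fasted LIRKO (12.94 ± 0.77, n = 3), glucose LIRKO (12.55 ± 0.64, n = 3) and refed LIRFKO (12.35 ± 0.69, n = 4) to glucose LIRFKO (11.43 ± 0.17, n = 3), glucose IR floxed (10.85 ± 0.38, n = 3), fasted LIRFKO (10.52 ± 0.34, n = 3), fasted IR/FoxO1 floxed (10.30 ± 0.91, n = 3) and fasted IR floxed (10.23 ± 0.44, n = 4). Of the 10 steps in this order, only that between the glucose LIRFKO and glucose IR floxed groups separated neighbours whose values did not overlap. The IR floxed groups stood at both ends of this order, refed at the top and fasted at the bottom.

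Changes below are differences of log2 values from 1 limma fit over the 37 libraries, with a term for dye and a block for array, so they can differ a little from differences of the plain means; errors are SE. A gene passed where its limma p was under 0.05 after Benjamini-Hochberg adjustment across the 22479 genes. As a description, Osgin1 was 2.86 ± 0.44 log2 higher in LIRKO than in IR floxed livers when fasted, a 7.25-fold difference, and 0.04 ± 0.40 higher when refed, a value that lay between -0.18 and 0.08 under other settings. Without IR.KO_Fast_505, the highest fasted LIRKO liver, the fasted difference was 2.22. LIRFKO minus LIRKO livers gave -2.48 ± 0.47 log2 when fasted and -0.96 ± 0.40 when refed.

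Osgin1 could be tested in 8 comparisons that use none of the mice that brought it into the list, and it passed in 3. With glucose it was higher in LIRKO than in IR floxed livers by 1.64 ± 0.47 log2, or 3.12-fold (adjusted p = 0.026). That call was lost without any 1 of 4 of the 6 mice (highest adjusted p = 0.153, without IR.KO_GTT_697). On refeeding it rose in IR/FoxO1 floxed livers by 2.90 ± 0.46 log2, or 7.45-fold (adjusted p = 0.000663), and this held without each mouse in turn (highest adjusted p = 0.0133). Without IRF.fl_Fast_523 the rise was 3.40 log2 (adjusted p = 0.0011). In LIRFKO livers it rose on refeeding by 1.76 ± 0.43 log2, or 3.38-fold (adjusted p = 0.0324), a call lost without any 1 of 6 of the 7 mice (highest adjusted p = 0.143). For comparison, refed IR floxed livers were 3.05 ± 0.41 log2 above fasted ones and refed LIRKO livers 0.24 ± 0.46 above fasted ones, both not tested.

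The refeeding responses of LIRFKO and IR/FoxO1 floxed livers differed by -1.14 ± 0.65 log2 for Osgin1, which did not pass (adjusted p = 1). LIRFKO livers did not pass against IR/FoxO1 floxed livers when fasted (0.37 ± 0.49 log2, adjusted p = 1) or when refed (-0.77 ± 0.45, adjusted p = 0.602), nor against LIRKO livers with glucose (-1.27 ± 0.47, adjusted p = 0.1). Glucose against fasting gave 0.72 ± 0.46 log2 in LIRFKO livers (adjusted p = 0.566).

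The 5 genes whose group means followed those of Osgin1 most closely, by Pearson's r over 11 groups among 10413 genes above the median level, were Tmed3 (0.973), Sec61a1 (0.967), Tssc4 (0.965), Ddx39a (0.961) and Nol12 (0.95). Sec61a1 encodes the channel through which new proteins enter the endoplasmic reticulum. Tmed3, a cargo receptor of the early secretory pathway, averaged 10.29 in fasted LIRFKO, 11.62 in fasted LIRKO and 10.52 in fasted IR floxed livers. Among the other members r with Osgin1 was 0.695 for Srxn1, 0.665 for Txnrd1 and 0.574 for Nfe2l2, and 0.106 for Nqo1 and 0.117 for Gclc. These are descriptions over group means that share fasted, refed and glucose states.

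In LIRFKO against IR/FoxO1 floxed livers 0 of 10 members passed when fasted, where 0.00445% of all genes did, and 0 of 10 when refed, where 0.378% did. With so few genes passing on the whole array, these counts say nothing particular about the members. At an unadjusted p under 0.05 the counts were 0 and 2 members, beside 3.64% and 10.4% of all genes. The 2 refed members were Hmox1 (0.67 ± 0.25 log2, adjusted p = 0.272) and Gsr (0.33 ± 0.14, adjusted p = 0.407). A second probe gave 0.03 log2 for Hmox1 and 0.35 for Gsr as plain differences of means, against 0.49 and 0.29 for the probes used. Both counts stayed at 0 without each mouse in turn, IRF.fl_Fast_523 included.

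LIRKO livers exceeded IR floxed livers in several members, and the list of those that passed was not the same in each feeding state. When fasted, 2 of 9 tested members passed, both higher, where 8.06% of all genes passed and 4.14% were higher. With glucose, 4 of 10 passed, all higher, where 8.3% of all genes passed and 4.39% were higher. When refed, 4 of 9 passed, all higher, where 11.6% of all genes passed and 6.94% were higher. The median change of the tested members was 0.39, 0.58 and 0.11 log2 in these 3 states, beside 0.00 for all genes.

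In the fasted state the change in the gene of Nrf2 itself was small. Nfe2l2 was 10.14, 10.16 and 10.16 in fasted LIRKO livers, against 9.72, 9.40, 9.56 and 9.72 in fasted IR floxed livers, with no overlap. The rise was 0.55 ± 0.15 log2, or 1.47-fold (adjusted p = 0.0213). It was not past the threshold without any 1 of 5 of the 7 mice (highest adjusted p = 0.0919, without IR.KO_Fast_550). In the refed and glucose states Nfe2l2 differed by 0.01 ± 0.14 and 0.15 ± 0.16 log2 (adjusted p = 0.992 and 0.685).

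Abcc4, an efflux pump that hepatocytes use to export conjugates and bile acids towards the blood, was the member that set LIRKO livers apart most steadily. Its levels are low, between 5.77 and 8.01 log2 in a table whose lowest value is 5.07, and its mean of 6.40 lies above 53.3% of genes. When fasted it was 7.09, 6.79 and 6.68 in LIRKO livers, against 6.38, 6.23, 5.91 and 6.20 in IR floxed livers. When refed it was 6.93, 8.01, 7.25 and 6.83 in LIRKO livers, against 6.33, 6.20, 5.89 and 6.17 in IR floxed livers. With glucose it was 6.99, 6.72 and 6.84 in LIRKO livers, against 6.72, 5.77 and 5.99 in IR floxed livers, where IR.fl_GTT_699 reached the lowest LIRKO value.

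Abcc4 rose in LIRKO against IR floxed livers by 0.70 ± 0.18 log2 when fasted (1.62-fold, adjusted p = 0.0161) and by 1.05 ± 0.17 when refed (2.07-fold, adjusted p = 6.69e-05). The fasted call was lost without IR.KO_Fast_505 (adjusted p = 0.109), and the refed one held without each mouse (highest adjusted p = 0.00057). In the refed comparison all 7 markers of Kupffer cells and other macrophages were higher too, with a median change of 1.38 log2, and their part in the Abcc4 result was not tested. With glucose the difference was 0.59 ± 0.19 log2 and did not pass (adjusted p = 0.0558). Without IR.fl_GTT_699 it was 0.89 and passed (adjusted p = 0.00938). It also passed under some other settings, given below.

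Srxn1, which restores peroxiredoxins inactivated by peroxide, was 11.55, 12.03 and 12.07 in fasted LIRKO livers, against 11.12, 11.39, 10.91 and 10.66 in fasted IR floxed livers. When refed it was 11.95, 11.82, 12.29 and 11.84 in LIRKO livers, against 12.54, 10.04, 10.47 and 11.06 in IR floxed livers. IR.fl_Refed_566 lay above every refed LIRKO liver and the other 3 IR floxed livers lay below all of them. With glucose it was 12.05, 11.76 and 11.93 in LIRKO livers, against 11.39, 10.27 and 11.19 in IR floxed livers.

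The refed difference of Srxn1 was 0.94 ± 0.30 log2, or 1.92-fold (adjusted p = 0.0399). It passed without IR.fl_Refed_566 (1.38 log2) and not without any 1 of the other 7 mice (down to 0.58 log2, adjusted p = 0.225, without IR.fl_Refed_508). Within slides it was 1.18 and 1.80 log2 on 2 slides and -0.25 on the slide that held IR.fl_Refed_566. The fasted and glucose differences were 0.84 ± 0.33 and 0.85 ± 0.35 log2 and did not pass (adjusted p = 0.124 and 0.148).

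Hmox1, which breaks down haem, is expressed in macrophages as well as in stressed hepatocytes. When refed it was 8.98, 9.11, 9.50 and 8.84 in LIRKO livers, against a range of 7.46 to 8.69 over the 4 IR floxed livers, with no overlap. The rise was 0.96 ± 0.22 log2, or 1.94-fold (adjusted p = 0.00346), and held without each mouse (highest adjusted p = 0.025). All 7 markers of Kupffer cells and other macrophages, the resident phagocytes of the liver, passed as higher in the same comparison, with a median change of 1.38 log2. Their mean level was 10.16 to 10.43 in refed LIRKO livers, against 8.71 to 8.91 in refed IR floxed livers. Their part in the Hmox1 result was not tested. When fasted, 0 of these 7 markers passed, with a median change of 0.32 log2, but their mean level was 9.47 to 9.85 in LIRKO livers, against 9.06 to 9.46 in IR floxed livers, without overlap. In these fasted livers Hmox1 was 8.97, 8.89 and 9.01 in LIRKO livers, against 8.24, 8.47, 7.83 and 8.33 in IR floxed livers, a difference of 0.66 ± 0.24 log2 that did not pass (adjusted p = 0.0904). With glucose Hmox1 did not pass and the groups overlapped, at 9.40, 9.47 and 9.09 in LIRKO against 9.62, 8.04 and 8.58 in IR floxed livers. A second, dimmer Hmox1 probe differed less, by 0.21 log2 in refed and 0.34 in fasted livers as plain differences of means, against 0.99 and 0.73 for the probe used. With glucose this second probe gave -0.01, against 0.57.

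**Figure D2:**
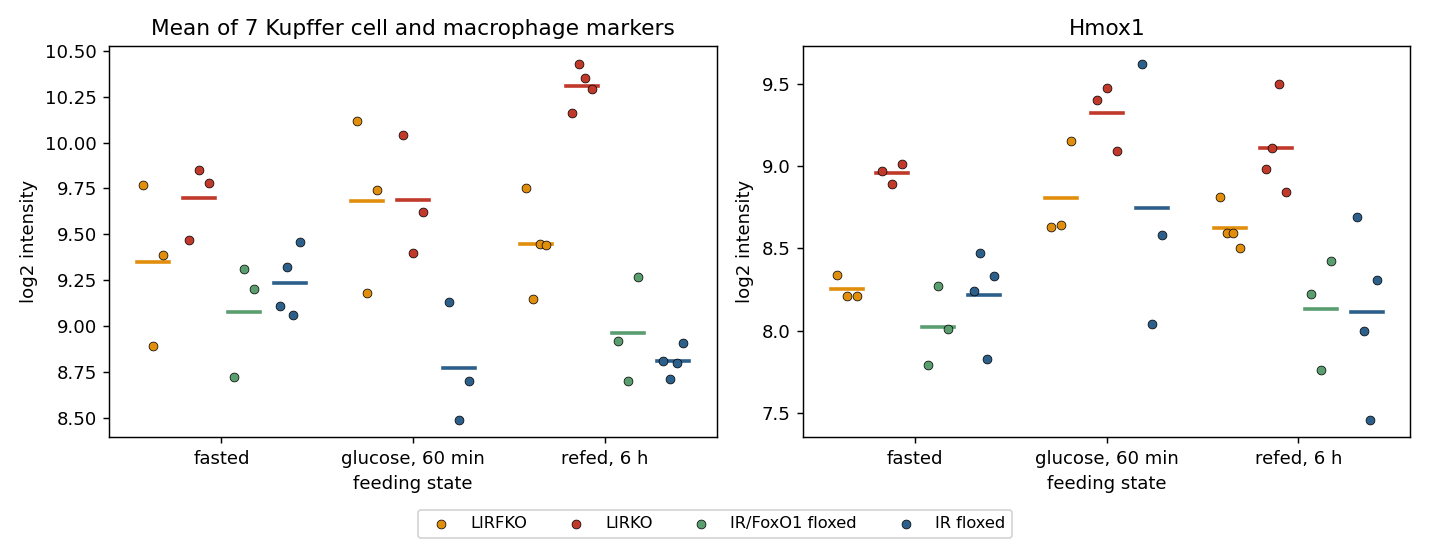
Mean level of 7 Kupffer cell and macrophage markers (left) and level of Hmox1 (right), both in log2 intensity, in each liver by feeding state and genotype; points are mice and bars are group means. In refed livers the marker mean is 10.16 to 10.43 in LIRKO against 8.71 to 8.91 in IR floxed mice, and Hmox1 is 8.84 to 9.50 in LIRKO against 7.46 to 8.69 in IR floxed mice.

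Nqo1, the quinone reductase often used as the readout of Nrf2, was dim in every group, with a mean of 6.75 log2. When refed it was 6.86, 7.05, 7.17 and 6.93 in LIRKO livers, against 6.49, 6.41, 6.07 and 6.78 in IR floxed livers. It rose by 0.46 ± 0.13 log2, or 1.38-fold (adjusted p = 0.0206), and by 0.49 ± 0.15 with glucose, or 1.41-fold (adjusted p = 0.0443). The refed call was lost without any 1 of 4 of the 8 mice (highest adjusted p = 0.122, without IR.fl_Refed_506) and the glucose call without any 1 of 5 of the 6 mice (highest adjusted p = 0.199, without IR.KO_GTT_690). When fasted it differed by 0.22 ± 0.14 log2 (adjusted p = 0.448).

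Txnrd1, which reduces thioredoxin, was 11.78, 11.91 and 11.71 in glucose LIRKO livers, against 11.06, 10.80 and 11.31 in glucose IR floxed livers, and rose by 0.67 ± 0.18 log2 (1.60-fold, adjusted p = 0.0168). Gsr, which reduces oxidised glutathione, was 12.03, 12.15 and 12.21 in glucose LIRKO livers, against 11.48, 11.65 and 11.58 in glucose IR floxed livers, and rose by 0.58 ± 0.15 log2 (adjusted p = 0.0132). Each call was lost without any 1 of 3 of the 6 mice, with highest adjusted p of 0.0755 for Txnrd1 (without IR.KO_GTT_667) and 0.104 for Gsr (without IR.fl_GTT_699). In fasted and refed livers Txnrd1 differed by 0.39 ± 0.17 and 0.05 ± 0.15 log2 (adjusted p = 0.175 and 0.92) and Gsr by -0.19 ± 0.14 and 0.11 ± 0.13 (adjusted p = 0.516 and 0.749). The test of the glucose response between LIRKO and IR floxed livers gave 0.29 ± 0.24 log2 for Txnrd1 (adjusted p = 0.887). In these glucose groups the median hepatocyte marker differed by -0.67 log2, with 1 of 7 markers lower. Of the 7 Kupffer cell and macrophage markers 1 passed as higher, with a median change of 0.58 log2. Their mean level was 9.40 to 10.04 in glucose LIRKO livers, against 8.49 to 9.13 in glucose IR floxed livers, without overlap. The part of these markers in the glucose results was not tested.

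Gsr was also the member that passed between glucose and fasted LIRKO livers, where 1 of 9 tested members and 0.596% of all genes did. It was 12.03, 12.15 and 12.21 with glucose, against 11.16, 11.70 and 11.22 when fasted, a rise of 0.81 ± 0.16 log2 (1.75-fold, adjusted p = 0.024). That call was lost without any 1 of 3 of the 6 mice (highest adjusted p = 0.151, without IR.KO_GTT_690). A second Gsr probe differed less here, by 0.33 log2 as a plain difference of means, against 0.77 for the probe used; between glucose LIRKO and IR floxed livers the second probe gave 0.61, against 0.56. The difference of this response from that of IR floxed livers was 0.77 ± 0.20 log2 and did not pass (adjusted p = 0.439).

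Neither subunit of the enzyme that limits glutathione synthesis passed in any of the 25 comparisons of the fit over all mice. Gclc with glucose passed under some other settings, given below. Gclc, the catalytic subunit, was 12.54, 12.53 and 12.38 in glucose LIRKO livers, against 11.12, 12.27 and 11.74 in glucose IR floxed livers, a difference of 0.84 ± 0.29 log2 (adjusted p = 0.0713) that passed without IR.fl_GTT_659 (1.07, adjusted p = 0.0289). When refed the difference was -0.57 ± 0.25 log2 (adjusted p = 0.159), with 11.87, 11.06, 10.79 and 11.53 in LIRKO livers, against 12.75, 11.90, 11.75 and 12.00 in IR floxed livers. Gclm, the modifier subunit, differed by -0.27 ± 0.16, -0.12 ± 0.17 and -0.12 ± 0.14 log2 in fasted, glucose and refed livers (adjusted p = 0.353, 0.763 and 0.735).

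**Figure D3:**
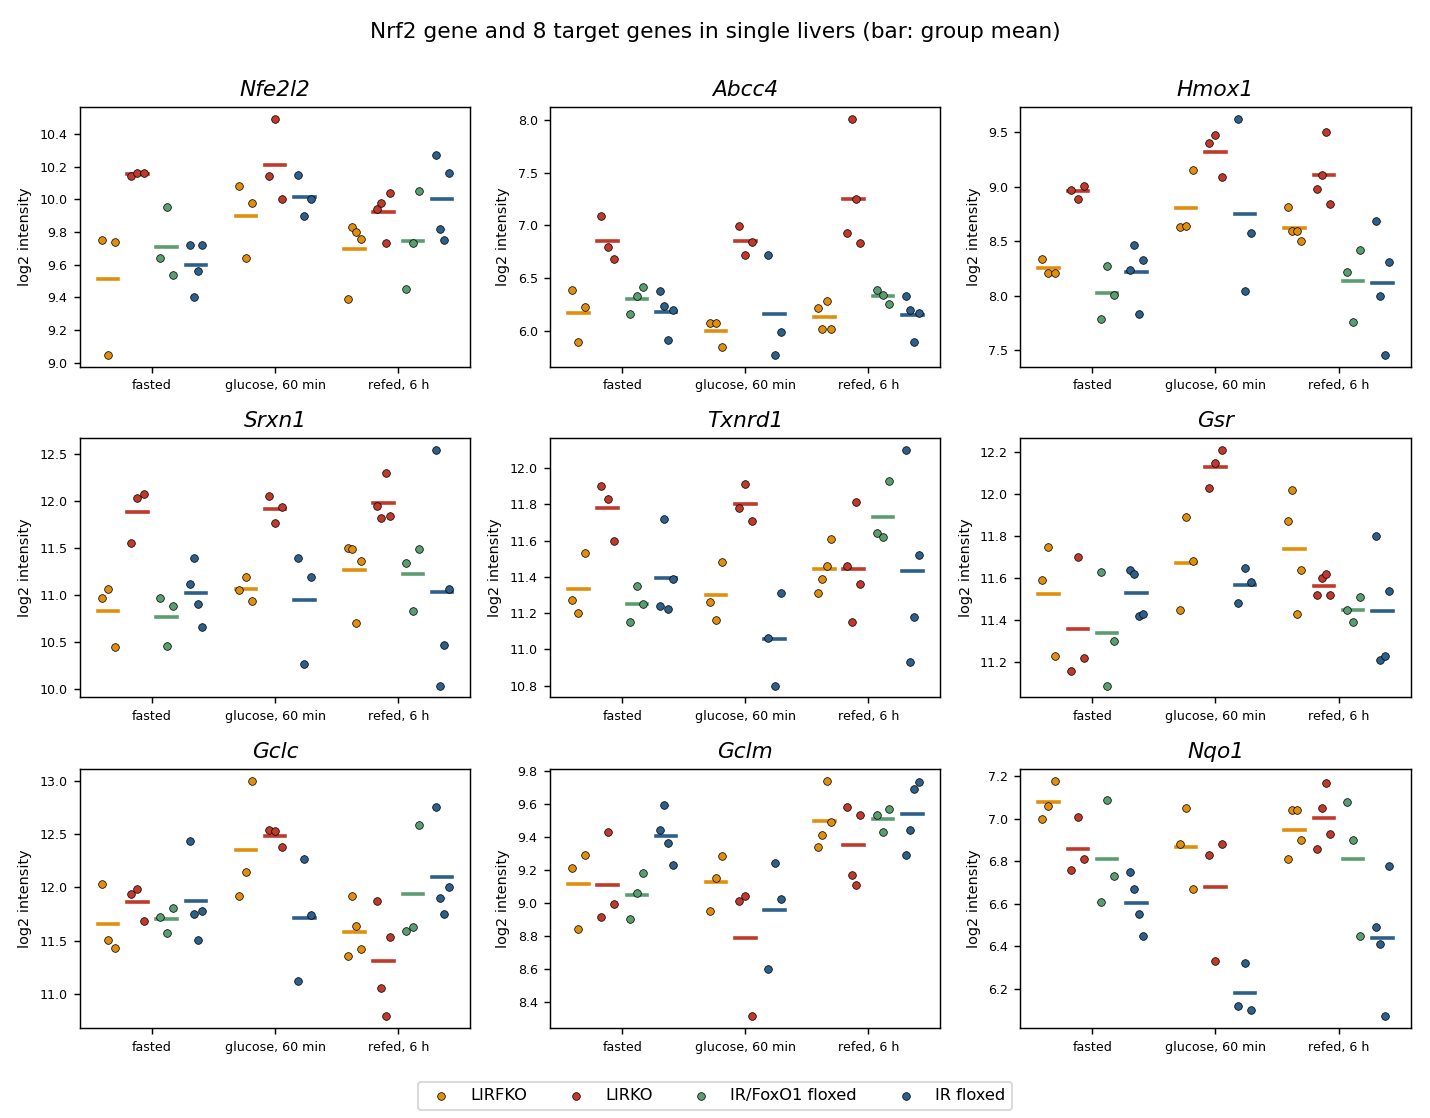
Levels of Nfe2l2 and 8 of its target genes (log2 intensity; each panel has its own vertical scale) in each of the 37 livers, by feeding state and genotype; points are mice and bars are group means. Refed LIRKO livers hold Abcc4 at 6.83 to 8.01 against 5.89 to 6.33 in refed IR floxed livers, while Gclm overlaps between these groups.

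LIRFKO livers were lower than LIRKO livers in Abcc4 in all 3 states, and in Nfe2l2 when fasted. With glucose and when refed, the mouse numbers of these groups are apart, so genotype and cohort cannot be told apart there. The 2 knockouts also come from different floxed lines. Between those lines 0 of 9 tested members passed when fasted and 0 of 9 when refed, where 0.0356% and 0.0845% of all genes did. At an unadjusted p under 0.05 the counts were 1 and 0, beside 7.48% and 6.11% of all genes. Of the tested members 2 of 9 passed between LIRFKO and LIRKO livers when fasted, 1 of 10 with glucose and 1 of 9 when refed, all lower. Of all genes 6.52%, 7.58% and 8.1% passed in these comparisons, and 3.23%, 3.73% and 4.43% were lower.

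Abcc4 was 6.39, 5.89 and 6.22 in fasted LIRFKO livers, against 7.09, 6.79 and 6.68 in fasted LIRKO livers. It was 6.07, 6.07 and 5.84 in glucose LIRFKO livers, against 6.99, 6.72 and 6.84 in glucose LIRKO livers. It was 6.21, 6.01, 6.28 and 6.01 in refed LIRFKO livers, against 6.93, 8.01, 7.25 and 6.83 in refed LIRKO livers. The groups did not overlap in any state.

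Abcc4 fell by 0.80 ± 0.19 log2 when fasted (adjusted p = 0.0108), by 1.10 ± 0.17 when refed (adjusted p = 6.7e-05) and by 0.81 ± 0.19 with glucose (adjusted p = 0.00873). The refed call held without each mouse (highest adjusted p = 0.000547). The fasted call was lost without IRF.KO_Fast_518 (adjusted p = 0.166) or IR.KO_Fast_550 (adjusted p = 0.0618), and the glucose call without IR.KO_GTT_697 (adjusted p = 0.101) or IRF.KO_GTT_725 (adjusted p = 0.0903). When refed, 6 of the 7 Kupffer cell and macrophage markers were lower too, with a median change of -0.81 log2, and their part was not tested. When fasted and with glucose 0 of 7 passed, with median changes of -0.41 and 0.00 log2. The mean level of these markers was 8.89 to 9.77 in fasted LIRFKO livers, against 9.47 to 9.85 in fasted LIRKO livers, with overlap.

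The effect of the knockout on Abcc4 in refed livers, each knockout against its own floxed line, differed between the 2 lines by -1.20 ± 0.25 log2 (adjusted p = 0.00873), where 1 of 9 tested members and 1.32% of all genes passed. It was -0.14 ± 0.19 log2 in LIRFKO against IR/FoxO1 floxed livers and 1.05 ± 0.17 in LIRKO against IR floxed livers. That call was lost without IRF.fl_Refed_467 (adjusted p = 0.0513). In fasted livers the same difference was -0.96 ± 0.26 log2 and did not pass (adjusted p = 0.0673), and 0 of 9 members did, against 0.934% of all genes. At an unadjusted p under 0.05 the count was 3, beside 12% of all genes.

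Nfe2l2 was 9.75, 9.05 and 9.74 in fasted LIRFKO livers, against 10.14, 10.16 and 10.16 in fasted LIRKO livers, and fell by 0.68 ± 0.16 log2 (adjusted p = 0.00921). The call was lost without IRF.KO_Fast_518, the lowest of these livers (adjusted p = 0.232), and without IR.KO_Fast_550 (adjusted p = 0.0869). Srxn1 differed by -1.09 ± 0.35 log2 when fasted, -0.90 ± 0.35 with glucose and -0.67 ± 0.30 when refed, with no overlap between LIRFKO and LIRKO livers in any state and no adjusted p under the threshold (0.0594, 0.124 and 0.198). The fasted difference passed in 3 of 9 other settings, among them slide as a block (-1.24, adjusted p = 0.0276). Hmox1 differed by -0.70 ± 0.25 log2 when fasted and -0.40 ± 0.22 when refed, also without overlap and without passing (adjusted p = 0.107 and 0.319). With glucose it did not pass and the groups overlapped, at 8.63, 8.64 and 9.15 in LIRFKO against 9.40, 9.47 and 9.09 in LIRKO livers. The second Hmox1 probe gave plain differences of -0.24 (fasted), -0.22 (refed) and 0.14 (glucose), against -0.70, -0.49 and -0.51. In the refed comparison 6 of 7 Kupffer cell and macrophage markers were lower. In the fasted one 0 of 7 passed, with a median change of -0.41 log2. The part of these markers was not tested.

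**Figure D4:**
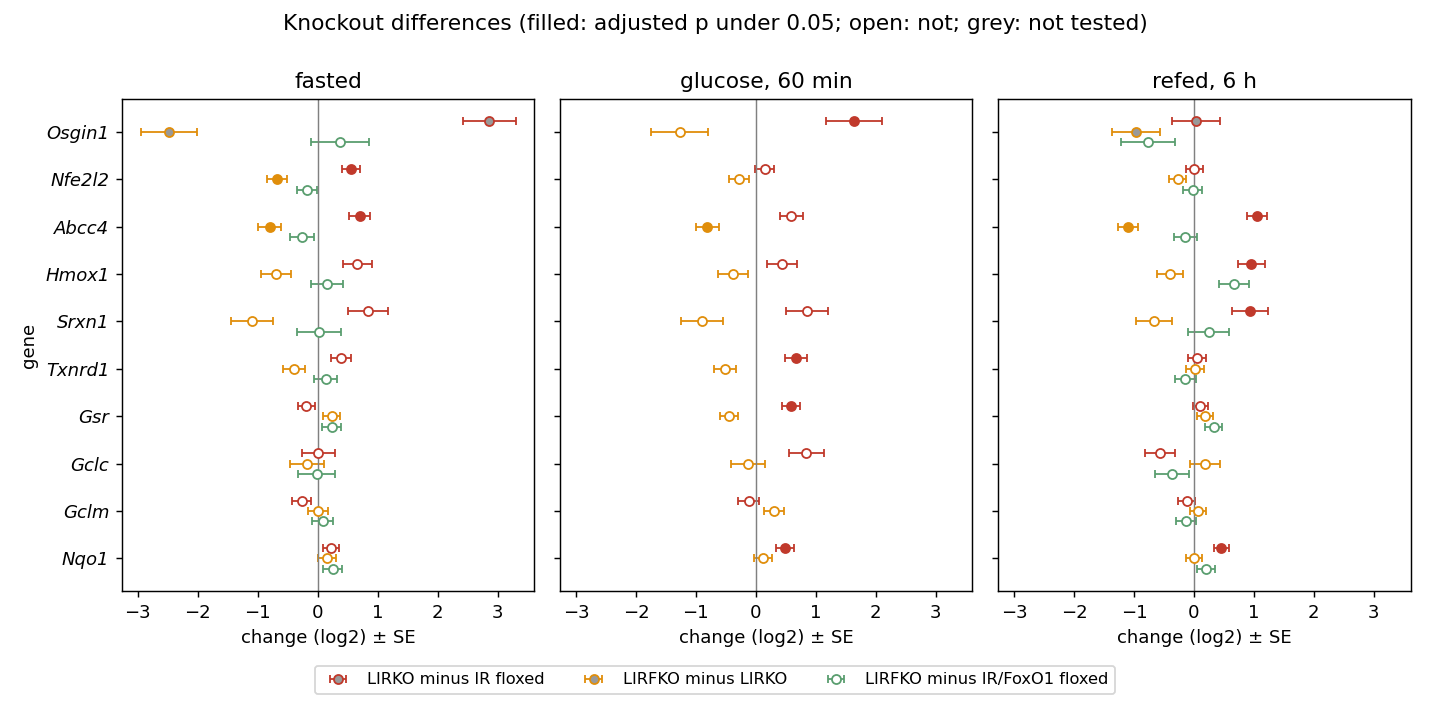
Changes (log2 ± SE, horizontal axis, the same in each panel) of the 10 genes between genotypes in fasted, glucose and refed livers; filled points passed at an adjusted p under 0.05, open points did not, and grey points were not tested. Abcc4 is lower in LIRFKO than in LIRKO livers in each state, by 0.80 to 1.10 log2, and LIRFKO livers show no filled point against IR/FoxO1 floxed livers.

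Between refed and fasted livers no member other than Osgin1 passed in any genotype. In LIRFKO and IR/FoxO1 floxed livers 1 of 10 tested members passed, Osgin1 in each, against 1.8% and 3.54% of all genes. In LIRKO and IR floxed livers, where Osgin1 was not tested, 0 of 9 passed, against 1.85% and 3.59%. At an unadjusted p under 0.05 the counts were 0 and 1, beside 12.2% and 14.3% of all genes. Gclm came nearest, at 0.53 ± 0.16 log2 higher in refed than in fasted IR/FoxO1 floxed livers (adjusted p = 0.0726). Glucose against fasting gave 0 of 10 in LIRFKO livers, against 0.654% of all genes, and 0 of 9 in IR floxed livers, against 0.16%. At an unadjusted p under 0.05 the count was 3 members in each, beside 12.3% and 8.5% of all genes.

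Nor did any tested member pass where the responses themselves were compared. For the refeeding response the count was 0 of 9 between LIRKO and IR floxed livers, 0 of 10 between LIRFKO and IR/FoxO1 floxed livers, 0 of 9 between LIRFKO and LIRKO livers and 0 of 9 between the floxed lines, where 0.165%, 0.00445%, 0.0222% and 0.00445% of all genes passed in limma. At an unadjusted p under 0.05 these counts were 1, 0, 0 and 1, beside 7.94%, 4.05%, 5.88% and 4.1% of all genes. For the glucose response the count was 0 of 9 between LIRKO and IR floxed livers and 0 of 9 between LIRFKO and LIRKO livers, where 0% and 0.0578% of all genes passed. These glucose counts were 2 and 1 at an unadjusted p under 0.05, beside 6.86% and 8.93% of all genes. Nfe2l2 gave -0.55 ± 0.20 log2 for the refeeding response of LIRKO minus IR floxed livers (adjusted p = 0.378).

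Beyond these members, 60 genes in 8 lists of the same pathway were followed, and 55 were measured. In LIRFKO against IR/FoxO1 floxed livers 0 of 55 passed in either state, where 0.00445% of all genes passed when fasted and 0.378% when refed, so that this count too says nothing particular about the pathway. In LIRKO against IR floxed livers 4 were higher and 2 lower when fasted, 4 higher and 2 lower with glucose, and 8 higher and 3 lower when refed, where 8.06%, 8.3% and 11.6% of all genes passed. The refed total of 11 fell to 3, 4 and 5 without IR.fl_Refed_506, IR.fl_Refed_562 or IR.fl_Refed_508, to 5 and 7 without IR.KO_Refed_564 or IR.KO_Refed_553, and to 6 with no array block. The fasted total of 6 was 3 without IR.fl_Fast_491. The median change of the 55 was -0.01, 0.09 and 0.05 log2 in these 3 states, beside 0.00 for all genes.

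Among the regulators, 10 genes including Keap1, Cul3 and the competitor Bach1, the small Maf gene Mafk passed in all 3 states. Mafk, whose protein is a DNA-binding partner of Nrf2 and also of Bach1, averaged 8.25 ± 0.07 in fasted LIRKO livers (SD, n = 3), against 7.49 ± 0.20 in fasted IR floxed livers (n = 4). It rose by 0.74 ± 0.13 log2 when fasted (adjusted p = 0.000602), by 0.76 ± 0.14 with glucose (adjusted p = 0.000948) and by 0.59 ± 0.12 when refed (adjusted p = 0.00117). LIRFKO minus LIRKO livers gave -0.65 ± 0.14, -0.87 ± 0.14 and -0.57 ± 0.12 log2 in fasted, glucose and refed livers (adjusted p = 0.00435, 0.000251 and 0.00299). Of these 6 calls 1 was lost on leaving out a mouse, that between fasted LIRFKO and LIRKO livers, without IRF.KO_Fast_518 (adjusted p = 0.0724). Maff, another small Maf, was 9.16 ± 0.89 in fasted LIRKO livers, against 6.90 ± 0.75 in fasted IR floxed livers, a rise of 2.43 ± 0.48 log2 (adjusted p = 0.00193). With glucose Maff did not pass, at 8.58 ± 0.44 in LIRKO against 6.96 ± 0.69 in IR floxed livers. Nor did it pass when refed, at 7.85 ± 0.68 against 7.42 ± 0.45 (SD), where the groups overlapped.

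Abcg2, an export pump that faces the bile, averaged 9.54 ± 0.20 in fasted LIRKO livers, against 10.89 ± 0.26 in fasted IR floxed livers. It fell in LIRKO livers by 1.25 ± 0.21 log2 when fasted, 1.27 ± 0.23 with glucose and 1.46 ± 0.20 when refed (adjusted p = 0.000404, 0.0007 and 7.58e-06), and was higher in LIRFKO than in LIRKO livers by 1.27 ± 0.23, 0.89 ± 0.23 and 1.09 ± 0.20 (adjusted p = 0.000823, 0.0143 and 0.00058). The LIRFKO call with glucose was lost without IR.KO_GTT_697 (adjusted p = 0.268) or IRF.KO_GTT_725 (adjusted p = 0.288). Abcc3, a pump on the same side of the cell as Abcc4, gave -1.46 ± 0.26 log2 in refed LIRFKO minus LIRKO livers (adjusted p = 0.000556), with 10.82 ± 0.30 in LIRFKO and 12.32 ± 0.18 in LIRKO livers (SD, n = 4 each).

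Of 20 measured genes for conjugation and reduction, Pir, which encodes an iron-binding nuclear protein, rose in LIRKO against IR floxed livers by 1.03 ± 0.18 log2 with glucose and 0.76 ± 0.15 when refed (adjusted p = 0.000496 and 0.00112). Gstm2, a glutathione transferase, gave -1.26 ± 0.26 log2 in glucose LIRKO minus IR floxed livers (adjusted p = 0.00269). It was higher in LIRFKO than in LIRKO livers by 1.54 ± 0.26, 1.67 ± 0.26 and 1.60 ± 0.23 log2 in fasted, glucose and refed livers (adjusted p = 0.00046, 0.000187 and 2.66e-05). Gstm2 also averaged more in IR/FoxO1 floxed than in IR floxed livers. The means were 11.55 ± 0.45 against 10.77 ± 0.44 when fasted and 12.00 ± 0.23 against 10.95 ± 0.39 when refed (SD). LIRFKO livers averaged 11.86 ± 0.20 and 11.97 ± 0.37 in these states. Between the floxed lines, and in the difference of the knockout effects, 0 of the 20 genes passed when fasted or refed. The part of the line in the Gstm2 gap was not tested. The Gstm genes are close copies of one another, so their probes may read several of them. None of the 6 measured genes of the glutathione list passed in any of the knockout comparisons. Osgin2, the paralog of Osgin1, was dim, at 6.04 ± 0.23 in refed LIRFKO and 6.69 ± 0.04 in refed LIRKO livers (SD, n = 4 each), and fell by 0.65 ± 0.13 log2 (adjusted p = 0.00142).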

How the data were processed

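The values are log2 single-channel intensities as deposited, 45220 features in 38 columns; the authors used R 3.1.0 and limma 3.20.1 per the submitters' processing notes, and of their background correction and normalization the method is not given in the sources used here. RNA was extracted by RNeasy with DNase and 200 ng was labelled, per the labels' protocols. Features were named through the platform annotation: 33026 had 1 gene, 0 several and 12194 none. This gave 22479 genes, each through its probe of highest mean over the 37 samples in a group. Symbols were updated for 24 features.

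Groups came from the sample titles. IRF.KO_GTT_724, whose labels conflict, was in no comparison. One model in limma 3.58.1 (R 4.3.3, statmod 1.5.0) had a term for each of 11 groups and for dye, with array (20 arrays on 5 slides) as a random block (consensus correlation 0.358), and gave 25 comparisons, 17 between groups and 8 of differences, each adjusted by Benjamini-Hochberg over all genes at 0.05. The 37 mice carry different numbers, so p-values measure the spread between mice. The number of arrays limits the precision. Alternatives were 9 other settings, within-slide differences and leaving out each mouse in turn.

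Members, gene lists and tests were chosen with earlier results of these data known. Genes named from a list were among the 3 of smallest adjusted p in that list and comparison, among those that passed; the genes most like Osgin1 were ranked by Pearson's r over group means among named genes above the median level, leaving out predicted models. The TGAG form of the motif was added after the windows had been read.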

Additional observations from a re-analysis of the deposited data

Results flagged for a closer look

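Nfe2l2 in IRF.KO_Refed_468 was 9.39, below the other refed LIRFKO livers at 9.83, 9.80 and 9.76, and its gap to the nearest of them exceeded Dixon's critical value for groups of 4. In all, 40 groups of 4 were examined, of which chance would mark about 1 in 20. The same liver had the lowest Osgin1 of its group, 11.33.

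The effect of the knockout on Abcc4 in refed livers differed between the lines, by -1.20 ± 0.25 log2 in the LIRFKO line minus the LIRKO line (adjusted p = 0.00873, limma), a test of the difference itself.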

How the results depend on the processing

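Over all mice the count of members that passed between LIRFKO and LIRKO livers was 2 when fasted, 4 with slide as a block and 1 with no array block. With glucose it was 1, and 2 with slide as a block, after quantile normalization again, or among genes above the median level. The other counts of members stayed within 1.5 times under these and the remaining settings, and no tested value that passed changed sign. Among them, the count between LIRKO and IR floxed livers with glucose, 4 of 10, ran from 3 to 6. Of the Osgin1 values given without a test, the refed difference of LIRKO from IR floxed livers lay between -0.18 and 0.08 log2, on both sides of 0, and so did that of IR/FoxO1 floxed from IR floxed livers when fasted (-0.36 to 0.07), when refed (-0.33 to 0.03) and in the refeeding response (-0.40 to 0.30). Leaving out each mouse in turn gave 0 to 2 members between LIRKO and IR floxed livers when fasted, 1 to 3 with glucose and 2 to 4 when refed. It gave 0 to 2, 0 to 1 and 1 to 1 between LIRFKO and LIRKO livers in these states, 0 to 1 for refeeding in LIRFKO livers, 0 to 1 for glucose in LIRKO livers and 0 to 2 for the difference of the refed knockout effects. Calls lost with another setting included Srxn1 in refed LIRKO livers (adjusted p = 0.0748 with no array block and 0.055 with no dye term) and Nqo1 with glucose (0.0687 with slide as a block), and Srxn1 between fasted LIRFKO and LIRKO livers was gained in 3 settings (slide as a block, with adjusted p = 0.0276, quantile normalization again, and genes above the median level). The cause of these changes was not tested. No paired analysis was possible because the mouse numbers are different in every group.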

Other observations

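The library IRF.KO_GTT_724, which its title calls a glucose sample and its other labels a fasted one, had Osgin1 at 12.53, Nfe2l2 at 10.05, Gclc at 12.66, Srxn1 at 10.92, Hmox1 at 9.40 and Abcc4 at 5.53 log2.

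IR.fl_Refed_566 was the highest refed IR floxed liver for Srxn1 (12.54), Txnrd1 (12.10), Gclc (12.75), Hmox1 (8.69), Nfe2l2 (10.27), Gsr (11.80) and Abcc4 (6.33). It was the lowest for Osgin1 (12.68) and Gclm (9.29), and neither for Nqo1 (6.49). Over the 11 group means Abcc4 and Srxn1 had a Pearson's r of 0.891, and Hmox1 and Srxn1 one of 0.809, as a description of groups that share feeding states.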
